A study of Mus musculus with 18 samples.

Results

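Ageing of quadriceps muscle that lacks Pofut1 in its fibres was followed by setting 3 libraries from old knockout mice (17 months) against 3 libraries from young knockout mice (2 months). These 6 libraries, chosen by their genotype and age labels, are 6 of the 18 in the series. Old knockout libraries carry the animal numbers 17, 45 and 40, and young knockout libraries the numbers 80, 82 and 83. Knockout mice carried 2 floxed Pofut1 alleles together with a Cre transgene driven by skeletal alpha actin. That promoter works in muscle fibres, so Pofut1 in the other cells of the tissue is not a target of the deletion. The other 12 libraries serve only as background for the ageing of muscle and form 3 old and 3 young libraries of each of 2 controls. These are floxed controls, with floxed Pofut1 alleles and no Cre, and Cre controls, with the same Cre and wild type Pofut1. All mice were of the C57/Bl6 strain, and RNA was extracted from whole quadriceps. The labels number separate animals but do not say how they were bred or collected, so p-values measure the spread between these libraries.

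Pofut1 encodes protein O-fucosyltransferase 1, an enzyme of the endoplasmic reticulum that adds fucose to epidermal growth factor-like repeats. Notch receptors and several of their ligands carry such repeats, and fucose on Notch is needed for full binding of ligand and is the base on which Fringe enzymes build longer sugars. In adult muscle, Notch signalling is best known for keeping satellite cells quiescent, and fibres are a source of Notch ligand for these stem cells.

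Pofut1, the deleted gene, was measured at 10.6 CPM (counts scaled to a common library total) in old knockout 17, 10.5 CPM in old knockout 45 and 16.3 CPM in the library labelled old knockout 40, against 9.61, 9.30 and 9.60 CPM in young knockout 80, 82 and 83. The 12 control libraries spanned 12.7 to 19.6 CPM: the library labelled old knockout 40 lay among them and the other 5 knockout libraries below them. Old knockout libraries averaged 12.5 ± 3.33 CPM (SD, n = 3), or 10.5 CPM for 17 and 45 alone, and young knockout libraries 9.51 ± 0.175 CPM (SD, n = 3). Old controls averaged 13.7 ± 1.05 CPM (floxed) and 16.8 ± 1.35 CPM (Cre), and young controls 18.1 ± 1.35 CPM (floxed) and 16.4 ± 2.62 CPM (Cre) (SD, n = 3 each). Because the Pofut1 level of the library labelled 40 goes against its label, the main counts are given with it and without it. Single genes and lists are given without it only where stated. The deleted part of the gene cannot be told from the rest in counts summed over the whole gene.

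**Figure D1:**
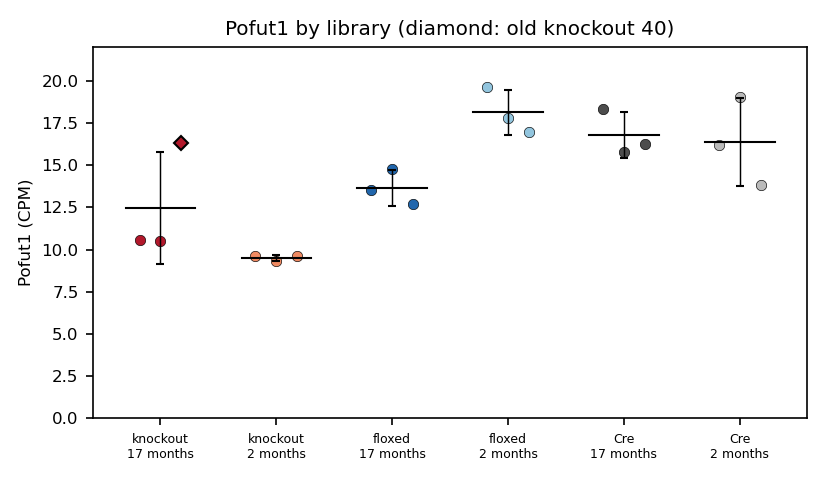
Pofut1 level (CPM, linear axis from 0) in each library of the 6 groups; points are libraries, horizontal lines group means and error bars SD (n = 3). The diamond, the library labelled old knockout 40 at 16.3 CPM, lies among the controls, and the other 5 knockout libraries lie between 9.30 and 10.6 CPM.

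The 6 knockout libraries held 25711893 to 27421354 counts over 15224 genes. Muscle markers were abundant in all of them, as in Acta1 (skeletal actin) at 13637 to 17812 CPM and Myh4 (the fast IIB myosin heavy chain) at 87086 to 105710 CPM, which fits the labelled tissue. Xist, the RNA that coats the silenced X chromosome in females, was at 335 and 287 CPM in old knockout 17 and the library labelled 40 and at 1.52 CPM in old knockout 45, against 269 CPM in young knockout 82 and 0.949 and 1.29 CPM in young knockout 80 and 83. Ddx3y, from the Y chromosome, was high only in the 3 libraries with low Xist. The old group thus holds 2 female libraries of 3 and the young group 1 of 3, and a fit with Xist as a covariate called 227 genes with age where the fit without it called 166. Among old controls, Xist was high in floxed 46 and 5 (326 and 300 CPM) and Cre 99 and 35 (303 and 260 CPM). Among young controls it was high only in floxed 32 (285 CPM) and Cre 94 (278 CPM). Each control thus also holds 2 female libraries of 3 in the old group and 1 of 3 in the young group.

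Ageing changed 166 of 15224 genes in knockout muscle (1.09%), with 84 higher (0.552%) and 82 lower (0.539%) in old than in young muscle (edgeR's quasi-likelihood test over all 18 libraries, Benjamini-Hochberg adjusted p under 0.05). Of the 166 genes, 165 had old and young knockout libraries that did not overlap. Over all genes, 8.88% were higher in every old library and 10.7% lower. Changes of at least 2-fold (1 on the log2 scale) made up 94 of the 166. For counts of called genes in the lists below, the background over all genes is 0.552% higher and 0.539% lower. Ostn, Rasd2 and Cacna1i were among the higher genes, and Col1a1, Col11a1 and Adamts3 among the lower. Without the library labelled old knockout 40, 237 genes were called (1.56%), 136 higher and 101 lower, and 117 of them were among the 166. Leaving out young knockout 80, 83 or 82 left 18, 23 or 70 calls, and leaving out old knockout 17 or 45 left 68 or 99. The 24 genes named for the largest changes were chosen among called genes whose ages did not overlap. For them, a lack of overlap stated below was fixed by that choice and is no further result. Of these genes, 5, 4 and 12 stayed called without young knockout 80, 83 and 82. Without old knockout 17, 45 and the library labelled 40, 10, 17 and 18 did. Beside a gene called with all libraries, an adjusted p for 1 left-out library is the highest of the 6 such fits, unless several are given. Of 19 genes described below as called without the library labelled 40 but not with it, none was called when any of the other 5 knockout libraries was left out instead (lowest edgeR adjusted p = 0.0731). In the authors' deposited table, 504 genes pass an adjusted p of 0.05 for the same comparison, 164 of them among the 166.

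Ostn encodes osteocrin, or musclin, a peptide secreted by muscle and bone. Its level was 36.1 and 11.3 CPM in old knockout 17 and 45 and 28.9 CPM in the library labelled 40, against 1.37, 2.13 and 2.53 CPM in young knockout 80, 82 and 83. Every old library was above every young one, and the difference was 12.6-fold (log2 change 3.66 ± 0.67 SE, edgeR adjusted p = 0.0171; 3.55 without the library labelled 40, adjusted p = 0.0267). Ostn did not pass when young knockout 80 was left out (edgeR adjusted p = 0.0991), nor when 82, 83 or old knockout 17 was.

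Rasd2, a small GTPase of the Ras family also called Rhes, was at 25.8, 17.5 and 28.5 CPM in old knockout 17, 45 and the library labelled 40, against 3.95, 4.63 and 4.05 CPM in young knockout 80, 82 and 83. The groups were far apart with little spread in the young one, and Rasd2 was 5.67-fold higher in old muscle (log2 change 2.50 ± 0.35 SE, edgeR adjusted p = 0.00548). Cacna1i, a T-type calcium channel subunit, was at 0.933, 1.18 and 1.10 CPM in the old libraries (17, 45 and the one labelled 40) and at 0.076, 0.105 and 0.151 CPM in the young ones (80, 82 and 83). All old libraries agreed closely for Cacna1i, and its log2 change was 3.23 ± 0.47 SE (edgeR adjusted p = 0.00571). Of the 24 genes named for the largest changes, Rasd2, Cacna1i and Phlda3 were called in all 6 fits that left out 1 knockout library, with adjusted p of at most 0.0386, 0.0441 and 0.0441.

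Uchl1, a deubiquitinating enzyme best known from neurons, was at 3.34, 13.4 and 1.72 CPM in old knockout 17, 45 and the library labelled 40, against 0.646, 0.906 and 0.605 CPM in young knockout 80, 82 and 83. Old knockout 45 was well above the rest and the library labelled 40 was the lowest of the old group, without overlap with the young group (log2 change 3.09 ± 0.57 SE, edgeR adjusted p = 0.0178, 0.0991 without young knockout 80). Cxcl13, a chemokine that attracts B cells, was also highest in old knockout 45, with 0.505, 2.33 and 0.510 CPM in old libraries and 0.038, 0.174 and 0.0378 CPM in young ones. Its call was the weakest of the 12 named higher genes (log2 change 3.65 ± 0.84 SE, edgeR adjusted p = 0.0489) and was kept only in the fit without the library labelled 40 among those that left out a knockout library. Dkk3, a secreted protein of the Dickkopf family, was at 31.2, 48.3 and 54.4 CPM in old and 8.09, 8.36 and 11.3 CPM in young knockout libraries (log2 change 2.27 ± 0.43 SE, edgeR adjusted p = 0.0204, 0.118 without young knockout 80). Mustn1, a small nuclear protein of muscle and cartilage, was at 79.9, 168 and 90.3 CPM in old and 33.5, 21.8 and 22.5 CPM in young knockout libraries (log2 change 2.12 ± 0.37 SE, edgeR adjusted p = 0.0139, 0.0790 without young knockout 83). Neither gene overlapped between ages. The other named higher genes were Aox3, an aldehyde oxidase (log2 change 2.63), Lrrc52, an auxiliary subunit of potassium channels (2.18), Srrm4os, an RNA antisense to Srrm4 (2.05), and Zfand4 (1.82). Without stated strand, reads of Srrm4os and of Srrm4 cannot be told apart.

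Phlda3, a p53 target that restrains Akt, was at 40.4, 52.6 and 32.2 CPM in old knockout 17, 45 and the library labelled 40, against 8.81, 9.30 and 12.6 CPM in young knockout 80, 82 and 83. The difference was 4.08-fold (log2 change 2.03 ± 0.29 SE, edgeR adjusted p = 0.00571), while the log2 change with age was 0.59 in floxed controls and 0.06 in Cre controls. For Phlda3 the difference from control ageing was not called, with or without the library labelled 40. The young knockout libraries lay below every control library: young controls spanned 20.6 to 59.7 CPM and old controls 41.7 to 77.6 CPM. Phlda3 lies on chromosome 1. In a window of 1.86 Mb that ends with it (chr1:133910304-135769134, GRCm38.p6) lie 3 more genes called in knockout ageing, namely Prelp (log2 change -0.87), Ppp1r12b (0.86) and Lmod1 (-1.33), and the window was chosen after these values were seen. In that window all young knockout libraries lay outside the range of the 6 young controls in 12 of 29 tested genes, against 5.57% of all genes, and all old knockout libraries outside that of the 6 old controls in 4 of 29, against 8.21%. Prelp and Ppp1r12b lost their calls without young knockout 80 and 83, and Prelp without 82 too (highest edgeR adjusted p = 0.0633 and 0.0643). Lmod1 was called only in the fit without the library labelled 40 among those that left out a knockout library. Of the 12 fits that left out a control library, 2 called Lmod1.

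Insig1, which holds back the activation of sterol regulatory element binding proteins, had the smallest adjusted p of the comparison and was chosen for that after its values were seen. Its level was 10.4, 11.3 and 13.6 CPM in old knockout 17, 45 and the library labelled 40, against 24.8, 25.7 and 28.9 CPM in young knockout 80, 82 and 83. Insig1 fell 2.25-fold with little spread in either age (log2 change -1.17 ± 0.15 SE, edgeR adjusted p = 0.00245) and kept its call whichever knockout library was left out, with adjusted p of at most 0.0290. Young control libraries spanned 17.1 to 21.9 CPM and old controls 12.1 to 18.5 CPM, so the young knockout libraries lay above all young controls. Acly, which makes the acetyl-CoA used for fatty acid and sterol synthesis, was at 19.5, 20.7 and 25.5 CPM in old and 45.4, 134 and 54.6 CPM in young knockout libraries. Young knockout 82 was far above the rest for Acly (log2 change -1.83 ± 0.36 SE, edgeR adjusted p = 0.0234, 0.0882 without old knockout 17), and young controls spanned 16.6 to 37.8 CPM. Of the 23 measured adipocyte genes, Acly was the 1 called, against 1.09% of all genes. In that list 19 had negative log2 changes and the median was -0.59, against 0.01 over all genes. Thrsp (log2 change -1.38, edgeR adjusted p = 0.0630), Scd2 (-1.12, 0.0751) and Acaca (-1.33, 0.108), all of fatty acid synthesis, did not pass.

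**Figure D2:**
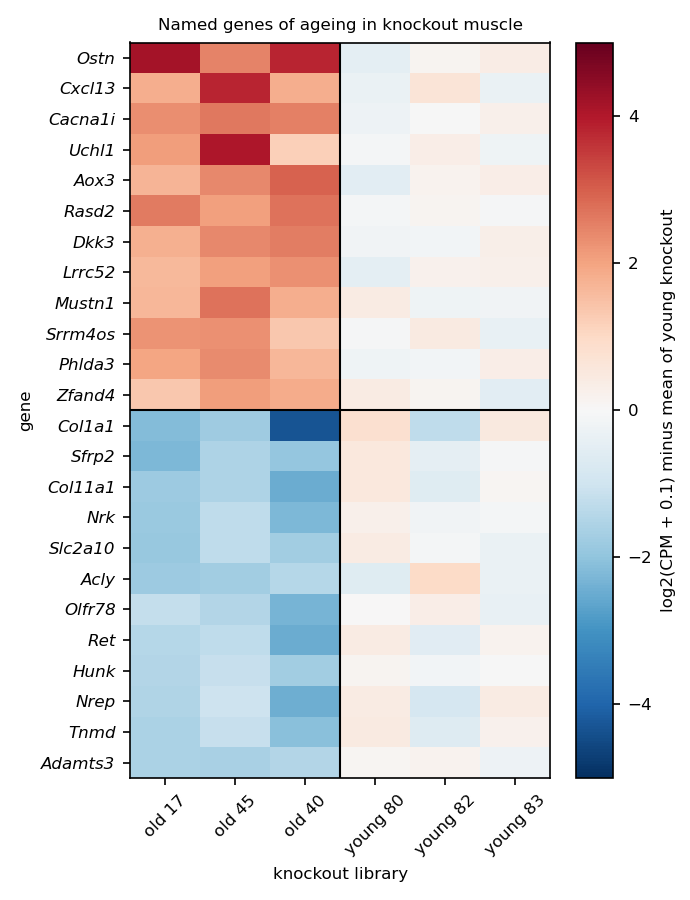
Level of the 24 named genes in the 6 knockout libraries, as log2(CPM + 0.1) minus the mean of the 3 young knockout libraries; rows are genes, higher in old muscle above the line and lower below it, and columns libraries with the old ones left. The genes were chosen for no overlap between ages. Uchl1 and Cxcl13 are highest in old knockout 45, and Col1a1 is lowest in the library labelled old knockout 40.

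Collagen genes of the fibrillar and basement membrane list all had lower estimates in old knockout muscle, but few passed the test. Of 18 measured fibrillar and basement membrane collagens, 3 fell, none rose and the other 15 did not pass. Over all genes, 0.539% fell. The list had 18 negative log2 changes and a median of -0.84 (0.01 over all genes). Col1a1, the alpha1 chain of type I collagen, was at 28.5, 36.8 and 6.23 CPM in old knockout 17, 45 and the library labelled 40, against 219, 52.3 and 180 CPM in young knockout 80, 82 and 83. The library labelled 40 was lowest, young knockout 82 lay near old knockout 45, and the log2 change of -2.65 ± 0.55 SE (edgeR adjusted p = 0.0301) did not pass without young knockout 80 (adjusted p = 0.134), 83 (0.108) or old knockout 17 (0.0823). Col11a1, a minor fibrillar collagen, was at 4.16, 5.11 and 2.63 CPM in old and 21.5, 9.93 and 16.0 CPM in young knockout libraries (log2 change -1.99 ± 0.35 SE, edgeR adjusted p = 0.0139, 0.0750 without young knockout 80). Col5a3, of type V collagen, was the other gene that fell (log2 change -1.30 ± 0.27 SE, edgeR adjusted p = 0.0286, 0.128 without young knockout 80). In this bulk tissue, fewer cells of a type and less RNA per cell cannot be told apart.

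Old knockout libraries differed among themselves in collagen. Summed collagen levels were 1071, 1505 and 402 CPM in old knockout 17, 45 and the library labelled 40, against 2883, 1213 and 2015 CPM in young knockout 80, 82 and 83. Old knockout 45 thus overlapped the young group, while old controls spanned 364 to 608 CPM and young controls 1640 to 2622 CPM. The collagen list had 17 of 18 genes lower with age in floxed controls (median -1.75) and 10 of 18 in Cre controls (median -1.25), where 6.12% and 0.998% of all genes were called lower. The difference between knockout and control ageing was not called for any collagen of this list. Without the library labelled 40, the same number of collagens fell, 3, with a median of -0.57.

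Matrix proteins and crosslinking enzymes followed with 1 of 36 lower, none higher and a median of -0.44. Over all genes, 0.539% were lower. Without the library labelled 40, 2 of the list were lower and the median was -0.34. Floxed controls had 27 lower (median -1.16) and Cre controls 9 (median -0.87). Loxl2, a lysyl oxidase that crosslinks collagen, was at 8.39, 7.74 and 3.02 CPM in old knockout 17, 45 and the library labelled 40, against 19.3, 10.7 and 14.9 CPM in young knockout 80, 82 and 83 (log2 change -1.23 ± 0.28 SE, edgeR adjusted p = 0.0467, 0.215 without young knockout 80). The library labelled 40 was again lowest, and the call of Loxl2 was lost in all 12 fits that left out a control library. Adamts3, which removes the amino-terminal propeptide of procollagens, held in 5 of the 6 fits that left out a knockout library. It was at 2.02, 2.00 and 2.23 CPM in old and 6.72, 7.07 and 5.26 CPM in young knockout libraries, with the library labelled 40 among the other old ones (log2 change -1.61 ± 0.27 SE, edgeR adjusted p = 0.0133, 0.0521 without young knockout 80). Tnmd, or tenomodulin, a tendon protein, fell by 1.63 on the log2 scale (edgeR adjusted p = 0.0171, 0.0920 without young knockout 80) and was the 1 gene called of 22 markers of fibro-adipogenic and tendon cells, whose median was -0.34.

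Signalling genes among the lower ones had varied roles. Ret, the receptor of the glial cell line-derived neurotrophic factor family, was at 2.68, 2.96 and 1.22 CPM in old knockout 17, 45 and the library labelled 40, against 9.68, 4.84 and 8.24 CPM in young knockout 80, 82 and 83 (log2 change -1.73 ± 0.30 SE, edgeR adjusted p = 0.0139, 0.0750 without young knockout 80). Old and young libraries of Ret did not overlap. The Wnt antagonist Sfrp2 fell by 2.10 on the log2 scale, to 0.389, 0.703 and 0.510 CPM in old knockout libraries against 3.23, 1.60 and 2.12 CPM in young ones (edgeR adjusted p = 0.0251, 0.127 without young knockout 80 and 0.0551 without the library labelled 40). Wnt5a, a noncanonical Wnt ligand, was at 4.20, 2.74 and 2.82 CPM in old and 6.53, 7.32 and 6.50 CPM in young knockout libraries (log2 change -1.06 ± 0.20 SE, edgeR adjusted p = 0.0201, 0.0785 without young knockout 83). With Dkk3, these made 1 higher and 2 lower of 31 measured genes of Wnt, BMP and TGF-beta signalling, with a median of -0.03. Over all genes, 0.552% were higher and 0.539% lower. Without the library labelled 40, 1 of the list was higher and 1 lower, with a median of 0.03. The other named lower genes were Nrk and Hunk, both protein kinases (log2 change -1.94 and -1.68), Slc2a10, a facilitative sugar transporter (-1.88), Nrep (-1.66) and Olfr78, of the large olfactory receptor family (-1.83). None of these 5 was called in more than 3 of the 6 fits that left out a knockout library.

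Genes of the Notch pathway and of fucose metabolism gave 1 call in knockout ageing. Of 32 measured Notch receptors, ligands and modifiers, none was called, and the median was -0.07. Notch3, a receptor best known from vessels, was at 7.62, 6.22 and 2.74 CPM in old knockout 17, 45 and the library labelled 40, against 9.49, 9.51 and 7.0 CPM in young knockout 80, 82 and 83 (log2 change -0.65 ± 0.33 SE, edgeR adjusted p = 0.398). Of 11 Notch targets 1 fell, and it was the collagen Col5a3. The other collagens of the list, Col5a1 and Col6a1, had log2 changes of -0.93 and -0.72 (edgeR adjusted p = 0.157 and 0.266). Hes1, a classical Notch target, was at 6.18, 11.6 and 8.78 CPM in old and 10.1, 18.9 and 10.2 CPM in young knockout libraries, which overlapped (log2 change -0.57 ± 0.26 SE, edgeR adjusted p = 0.335). None of 15 measured fucose pathway genes was called. Fut10, a fucosyltransferase, had the smallest p of them (log2 change -0.89 ± 0.24 SE, edgeR adjusted p = 0.0902). Satellite cell genes gave 1 call of 22, Des, which fibres also express at high levels. Pax7, which defines satellite cells, was at 0.661, 1.33 and 0.470 CPM in old and 1.97, 1.74 and 1.32 CPM in young knockout libraries, with old knockout 45 just above young knockout 83 (log2 change -1.02 ± 0.37 SE, edgeR adjusted p = 0.196).

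Most genes called in knockout ageing moved the same way in control ageing, which shares no library with it. Each genotype has more female libraries among old than among young ones, and the part of sex in this agreement was not tested. Of the 166 genes, 100 were called in the same direction in floxed controls (60.2% of the 166 and 6.23% of the 1605 called there) and 52 in Cre controls (31.3% of the 166 and 19% of the 274 called there). No gene was called in opposite directions. Over the same 166 genes, 157 (94.6%) had the sign of the floxed controls, against 59.3% of all genes, and 154 (92.8%) that of the Cre controls, against 62.0% of all genes. Over all genes, 10.5% were called in floxed controls (4.43% higher and 6.12% lower) and 1.8% in Cre controls (0.801% higher and 0.998% lower). Ostn, Rasd2, Cacna1i, Dkk3, Col1a1, Col11a1 and Adamts3 were called in all 3 genotypes. Ostn had a log2 change of 3.66 in knockout, 4.82 in floxed control and 4.22 in Cre control muscle, and Col1a1 of -2.65, -3.47 and -3.77. Across all 15224 genes, Pearson's r of the log2 changes was 0.485 between knockout and floxed controls and 0.442 between knockout and Cre controls, as a description across genes, which are not independent replicates. The 64 genes called in neither control included Insig1, Phlda3, Acly, Uchl1, Zfand4 and Myh8.

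**Figure D3:**
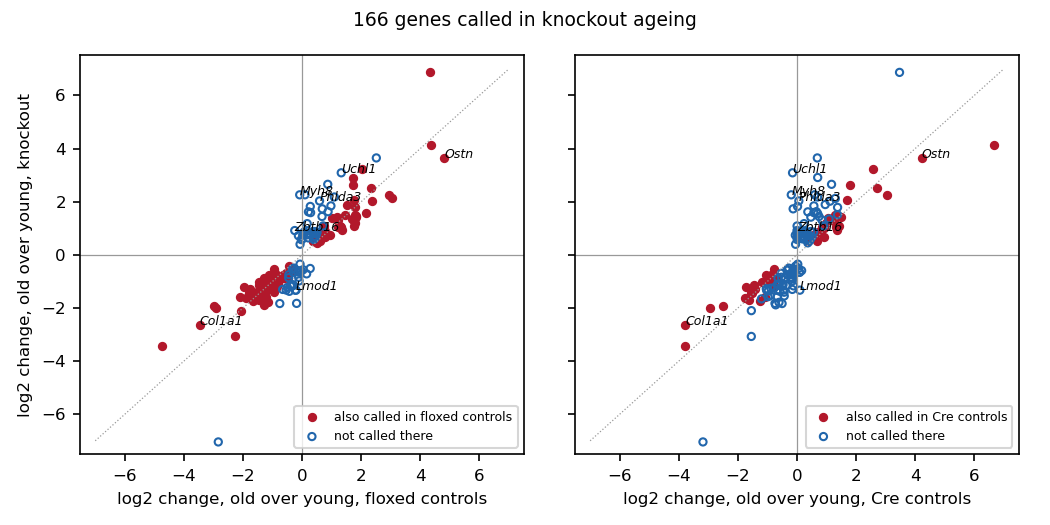
Log2 change with age in knockout muscle (vertical) against that in floxed controls (left panel) and Cre controls (right panel) for the 166 genes called in knockout ageing; filled points were also called in that control, open points were not, and the dotted line marks equal change. Most points share the sign of the control change, and Myh8 and Lmod1 lie near 0 on both control axes.

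Whether ageing differed between knockout and control muscle was tested on the difference of the changes, knockout minus the mean of both controls. With all libraries no gene passed (edgeR's quasi-likelihood test, 1714 genes at unadjusted p under 0.05, smallest adjusted p = 0.184), and DESeq2 called 77. Without the library labelled old knockout 40, 13 genes passed (0.0854% of genes), 11 with a more positive change in knockout muscle (0.0723%) and 2 with a more negative one (0.0131%). DESeq2 called 462 in that setting. With floxed controls alone 6 passed, and with Cre controls alone 1, Hr. With that library kept, 3 genes passed when Xist was a covariate.

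Among fibre genes of the embryonic and perinatal stages and of regeneration, the myosins Myh8, Myh3 and Myl4 were higher in old knockout 17 and 45 than in the library labelled 40. The sum over the list, in which Des is the most abundant gene, was 3816, 5252 and 3358 CPM in old knockout 17, 45 and the library labelled 40, against 2981, 2517 and 2867 CPM in young knockout 80, 82 and 83. Every old knockout library was thus above every young one in the sum. Old controls spanned 2727 to 3835 CPM and young controls 2576 to 3157 CPM, so only old knockout 45 lay above the old controls. Of 22 measured genes of this list, 3 rose with all libraries (Des, Hspb7 and Myh8), against 0.552% of all genes. The list had 20 positive changes and a median of 0.90, against 0.01 over all genes. Without the library labelled 40, 10 rose, against 0.893% of all genes, and the median was 1.11 against -0.01. Myh8, the perinatal myosin heavy chain, was at 131 and 374 CPM in old knockout 17 and 45 and 38.1 CPM in the library labelled 40, against 42.7, 40.7 and 30.2 CPM in young knockout 80, 82 and 83. The library labelled 40 lay within the young range and within the 25.5 to 55.3 CPM of the old controls. The log2 change of Myh8 was 2.26 ± 0.52 SE with all libraries (edgeR adjusted p = 0.0495) and 2.74 ± 0.35 SE without it (adjusted p = 0.00299). The log2 difference of Myh8 from control ageing was 2.88 ± 0.41 SE without it (adjusted p = 0.0221). Myh8 lost its call when any of the other 5 knockout libraries was left out (edgeR adjusted p = 0.0706 without old knockout 17 and 0.194 without old knockout 45). With all knockout libraries kept, the call of Myh8 was also lost in all 12 fits that left out a control library.

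Myh3, the embryonic myosin heavy chain, followed with 69.8, 232 and 13.8 CPM in old knockout 17, 45 and the library labelled 40, against 41.7, 17.6 and 5.82 CPM in young knockout 80, 82 and 83. Old knockout 17 and 45 were above every other library, and the log2 change without the library labelled 40 was 2.80 ± 0.59 SE (edgeR adjusted p = 0.0304; 0.152 with it). Myl4, the embryonic and atrial myosin light chain, was at 46.7, 167 and 7.76 CPM in old and 14.3, 7.53 and 5.33 CPM in young knockout libraries (log2 change without the library labelled 40 3.56 ± 0.49 SE, edgeR adjusted p = 0.00306; 0.0541 with it). Tmem8c, or myomaker, the membrane protein needed for myoblast fusion, was at 2.02, 7.96 and 0.0392 CPM in old and 1.67, 0.383 and 0.227 CPM in young knockout libraries. The library labelled 40 was the lowest of the 6 for Tmem8c (without it, log2 change 2.72 ± 0.64 SE, edgeR adjusted p = 0.0467; 0.294 with it). The other genes of the list called without the library labelled 40 were Tnnt2, cardiac troponin T (2.69), Ankrd1, a stress-responsive ankyrin repeat protein (2.94), Hspb7, a small heat shock protein (1.66), Ncam1, the neural cell adhesion molecule (1.41), Des, desmin (0.82), and Myf6, the MRF4 myogenic factor (0.66), each as log2 change. Members that did not pass included Myog (0.54, edgeR adjusted p = 0.481) and Actc1, cardiac actin, whose log2 change was negative. When old knockout 45 was left out instead, 6 of these genes had smaller log2 changes that were not called, at 1.59 for Myl4 (edgeR adjusted p = 0.220), 0.95 for Myh3 (0.594), 0.95 for Tnnt2 (0.405), 0.44 for Tmem8c (0.900), 0.34 for Ncam1 (0.758) and 0.19 for Myf6 (0.820).

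Des rose without regard to that library. It was at 2408, 3130 and 2540 CPM in old knockout 17, 45 and the library labelled 40, against 1436, 1573 and 1689 CPM in young knockout 80, 82 and 83 (log2 change 0.78 ± 0.15 SE, edgeR adjusted p = 0.0190, 0.118 without young knockout 80). Floxed and Cre controls also had more Des with age, by 0.80 and 0.62 on the log2 scale. Igf2, a fetal growth factor and imprinted gene, was at 24.0, 61.6 and 4.90 CPM in old knockout 17, 45 and the library labelled 40, against 9.68, 8.85 and 5.94 CPM in young knockout 80, 82 and 83. The library labelled 40 was the lowest of the 6, and old controls spanned 3.91 to 7.94 CPM. The log2 change of Igf2 was 2.39 ± 0.45 SE without it (edgeR adjusted p = 0.0186; 0.153 with it), and the log2 difference from control ageing 3.11 ± 0.54 SE (adjusted p = 0.0437). Without old knockout 45 the log2 change of Igf2 was 0.83 (edgeR adjusted p = 0.579).

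**Figure D4:**
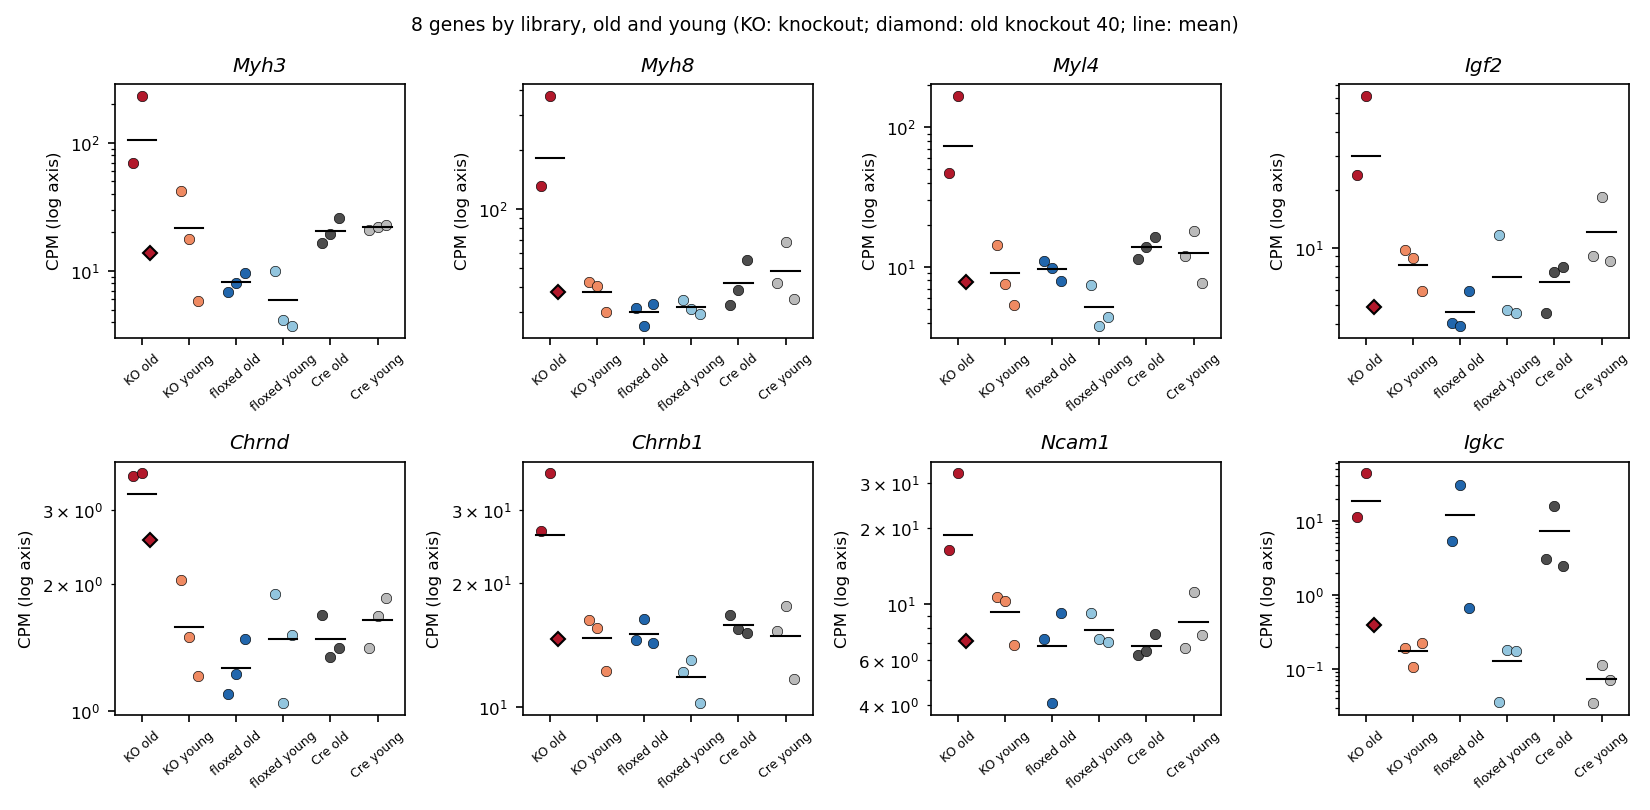
Level (CPM, log axis) of 8 genes in each library of the 6 groups, old left of young; points are libraries, lines group means, and the diamond the library labelled old knockout 40. Old knockout 17 and 45 stand above all other libraries for Myh3, Myh8, Myl4, Igf2, Chrnd, Chrnb1 and Ncam1, and for Igkc old knockout 17 stands among the old controls and 45 above them, while the diamond lies among the young libraries for Myh3, Myh8, Myl4 and Chrnb1.

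Genes of the denervation response had a summed level in the library labelled 40 that lay between the young and the other old knockout libraries. The sum was 1048, 1107 and 803 CPM in old knockout 17, 45 and the library labelled 40, against 534, 651 and 658 CPM in young knockout 80, 82 and 83, and 705 to 1107 CPM in old controls. None of 23 measured genes was called with all libraries (20 positive changes, median 0.54). Without the library labelled 40, 4 rose (Chrnb1, Chrnd, Ncam1 and Ankrd1), with a median of 0.81. Over all genes in that fit, 0.893% rose and the median was -0.01. In floxed controls 3 genes of the list rose and 1 fell (median 0.03), and in Cre controls none was called (median 0.05). Chrnb1, Chrnd, Chrna1 and Chrng encode subunits of the acetylcholine receptor. The gamma subunit belongs to the fetal receptor, and the epsilon subunit, Chrne, which replaces it in the adult, was not analysed here. Genes of this receptor are known to be regulated through E-boxes, the binding motif of myogenic factors. The promoter windows of the receptor genes found in RefSeq (GRCm38.p6, 250 bases before to 50 after the start) are therefore shown with every CANNTG in capitals, read on the gene's strand, where the motif is the same on the other strand:
Chrna1: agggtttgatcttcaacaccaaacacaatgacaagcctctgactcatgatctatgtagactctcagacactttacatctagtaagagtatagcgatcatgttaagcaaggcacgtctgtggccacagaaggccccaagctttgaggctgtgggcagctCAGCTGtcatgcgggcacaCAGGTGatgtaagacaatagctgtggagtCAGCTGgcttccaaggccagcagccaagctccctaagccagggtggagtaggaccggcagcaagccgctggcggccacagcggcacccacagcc
Chrnb1: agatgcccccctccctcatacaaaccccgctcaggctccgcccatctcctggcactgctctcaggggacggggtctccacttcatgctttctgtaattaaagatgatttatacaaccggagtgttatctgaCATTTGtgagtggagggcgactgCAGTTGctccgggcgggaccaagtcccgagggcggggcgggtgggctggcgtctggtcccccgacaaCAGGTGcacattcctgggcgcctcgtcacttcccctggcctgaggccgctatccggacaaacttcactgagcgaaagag
Chrng: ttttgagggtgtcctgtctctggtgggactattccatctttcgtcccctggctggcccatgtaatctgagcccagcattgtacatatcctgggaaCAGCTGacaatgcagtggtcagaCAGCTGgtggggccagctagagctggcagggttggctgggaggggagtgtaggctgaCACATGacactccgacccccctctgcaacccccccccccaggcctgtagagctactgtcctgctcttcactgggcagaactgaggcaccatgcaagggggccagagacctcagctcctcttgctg
Chrne: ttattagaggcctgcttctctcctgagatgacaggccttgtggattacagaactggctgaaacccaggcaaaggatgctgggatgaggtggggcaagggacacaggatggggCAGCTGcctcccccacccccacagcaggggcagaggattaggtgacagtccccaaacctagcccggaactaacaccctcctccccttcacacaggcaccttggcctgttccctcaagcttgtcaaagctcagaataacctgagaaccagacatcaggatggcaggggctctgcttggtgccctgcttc
Chrna1 (chr2:73580289-73580588, minus strand), Chrnb1 (chr11:69795888-69796187, minus strand) and Chrng (chr1:87205561-87205860, plus strand) each hold 3 CANNTG, and 17.6% of the 32851 windows hold at least that many. Chrne (chr11:70619145-70619444, minus strand) holds 1, and 72.3% of the windows hold at least that many. In Chrna1 and Chrng, 2 of the 3 read CAGCTG, a number reached by 1.90% of all windows. No motif overlaps another, and a match describes letters, not a site in use.

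Chrnb1 was at 26.7, 36.8 and 14.7 CPM in old knockout 17, 45 and the library labelled 40, against 16.3, 15.5 and 12.2 CPM in young knockout 80, 82 and 83. Old knockout 17 and 45 lay above the 14.3 to 16.7 CPM of the old controls, and the library labelled 40 within it. The log2 change was 1.11 ± 0.17 SE without that library (edgeR adjusted p = 0.00651; 0.104 with it), and 0.50 without old knockout 45 (0.341). Chrnd was at 3.61, 3.67 and 2.55 CPM in old and 2.05, 1.5 and 1.21 CPM in young knockout libraries, with the library labelled 40 also above every young one (without it, log2 change 1.20 ± 0.25 SE, edgeR adjusted p = 0.0302; 0.0505 with it). Chrng was at 1.01, 2.63 and 0.118 CPM in old and 0.836, 0.174 and 0.151 CPM in young knockout libraries and did not pass (without the library labelled 40, log2 change 2.23 ± 0.63 SE, edgeR adjusted p = 0.0942). Chrna1, at 22.5, 46.4 and 18.9 CPM in old and 24.3, 16.8 and 13.7 CPM in young knockout libraries, overlapped between ages and did not pass either (without the library labelled 40, 0.92 ± 0.27 SE, edgeR adjusted p = 0.104). Ncam1 was at 16.4, 32.7 and 7.17 CPM in old and 10.6, 10.3 and 6.88 CPM in young knockout libraries (without the library labelled 40, log2 change 1.41 ± 0.32 SE, edgeR adjusted p = 0.0405; 0.244 with it). For none of these receptor genes was the difference from control ageing called, and Chrnd and Chrnb1 came nearest (edgeR adjusted p = 0.0666 and 0.0699 without the library labelled 40).

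Of the 13 genes called in the difference of ageing without the library labelled 40, Hr, the hairless corepressor, had the smallest adjusted p. It was at 57.9, 50.2 and 21.2 CPM in old knockout 17, 45 and the library labelled 40, against 23.2, 29.1 and 27.2 CPM in young knockout 80, 82 and 83, while old controls spanned 18.2 to 27.2 CPM. Hr rose in old knockout muscle without the library labelled 40 (log2 change 1.03 ± 0.13 SE, edgeR adjusted p = 0.00299), and differed from control ageing by 1.45 (adjusted p = 0.00232). Its log2 change was 0.43 without old knockout 17 (edgeR adjusted p = 0.497) and 0.58 without old knockout 45 (0.391). Mfap5, a microfibril protein, was at 16.9, 17.4 and 6.66 CPM in old and 13.3, 9.30 and 11.2 CPM in young knockout libraries, against 7.58 to 9.06 CPM in old and 11.9 to 18.4 CPM in young controls. Its log2 change in knockout muscle without the library labelled 40, 0.61 ± 0.17 SE, did not pass by itself (edgeR adjusted p = 0.0937). Mfap5 fell in floxed controls (-0.85, edgeR adjusted p = 0.0491), and the difference from control ageing was 1.49 (adjusted p = 0.0179). Col8a1, a short-chain collagen, Pdgfra, the receptor that marks fibro-adipogenic progenitors, Ifngr1, the interferon gamma receptor, Cdc14a, a phosphatase, Usp35, a deubiquitinase, Fam102b and Zdbf2, an imprinted gene, likewise did not pass in knockout ageing without that library. Pdgfra was at 98.0, 109 and 71.1 CPM in old and 81.7, 89.1 and 73.9 CPM in young knockout libraries, against 43.3 to 68.2 CPM in old and 80.7 to 107 CPM in young controls. Ccrl2, a chemokine receptor-like protein, and Sobp had the negative differences, of -1.45 and -0.78.

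Immunoglobulin genes separated the old knockout libraries as well. Igkc, the kappa light chain constant region, was at 11.2, 43.9 and 0.392 CPM in old knockout 17, 45 and the library labelled 40, against 0.190, 0.105 and 0.227 CPM in young knockout 80, 82 and 83. Old controls spanned 0.662 to 30.3 CPM for Igkc, so old knockout 17 and the old controls overlapped and the library labelled 40 lay below them. Igj, the joining chain of secreted antibodies, was at 4.86, 13.5 and 0.470 CPM in old and 0.456, 0.244 and 0.0378 CPM in young knockout libraries. Both rose without the library labelled 40 (log2 change 7.29 ± 1.36 SE for Igkc, edgeR adjusted p = 0.0186; 5.20 ± 0.96 SE for Igj, adjusted p = 0.0171) and did not pass with it (0.0608 and 0.0630) or without old knockout 45 (5.04, 0.166 and 3.42, 0.188). The variable segments Igkv3-2 and Ighv1-53 were at 3.54 and 4.51 CPM in old knockout 17, 14.4 and 9.0 CPM in old knockout 45 and 0 in the library labelled 40. Such segments are near-identical copies between which reads can be split. B cell markers were lower: Ms4a1 was at 0.0777, 3.07 and 0.157 CPM in old and 0.114, 0.105 and 0 CPM in young knockout libraries.

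Markers of other cells moved among the old knockout libraries. Summed macrophage markers (23 measured, none called) were 500, 828 and 263 CPM in old knockout 17, 45 and the library labelled 40, against 568, 393 and 317 CPM in young knockout 80, 82 and 83. Old controls spanned 282 to 397 CPM in this sum and young controls 361 to 781 CPM. The list had 20 positive changes and a median of 0.43, or 0.78 without the library labelled 40, and -0.49 and -0.28 in floxed and Cre controls. Among the 3 negative changes was that of Lyz1, the list's gene of smallest p. It lay between -1.75 and -0.72 in the fits that left out 1 knockout library. No defining macrophage marker was at 0: Cd68 was at 5.67, 12.7 and 2.94 CPM and Mrc1 at 82.2, 103 and 46.6 CPM in these old libraries. Summed erythroid markers (11 measured, none called) were 223, 568 and 2006 CPM in old and 466, 217 and 364 CPM in young knockout libraries. In this erythroid sum, old controls spanned 386 to 3186 CPM and young controls 186 to 959 CPM. Slow fibre genes (17 measured, none called) summed to 546, 1258 and 3212 CPM in old and 803, 1622 and 737 CPM in young knockout libraries, and their median of 0.70 was -0.09 without the library labelled 40. In the slow fibre sum, old controls spanned 425 to 2714 CPM and young controls 274 to 1946 CPM. Myh7, the slow myosin heavy chain, was at 17.9, 196 and 1185 CPM in old and 164, 530 and 162 CPM in young knockout libraries. Old knockout 45, the highest in embryonic fibre genes, was also the highest in macrophage markers. Among the knockout libraries, the one labelled 40 was the highest in slow fibre and erythroid markers. The part of these markers in the results was not tested.

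Schwann cell and myelin genes gave 1 call with all libraries, and the calls of a clock gene, Pfkfb3 and Aqp4 turned on the library labelled 40. Pmp22, a myelin protein, was at 15.7, 15.7 and 16.4 CPM in old knockout 17, 45 and the library labelled 40, against 25.9, 20.7 and 22.2 CPM in young knockout 80, 82 and 83. Pmp22 was the 1 gene called of 16 measured (log2 change -0.53 ± 0.12 SE, edgeR adjusted p = 0.0434), a call that was lost when any knockout library was left out (0.0570 to 0.202). Nr1d1, the clock repressor REV-ERB alpha, was at 15.2, 10.8 and 28.1 CPM in old and 31.1, 47.1 and 28.3 CPM in young knockout libraries (without the library labelled 40, log2 change -1.45 ± 0.31 SE, edgeR adjusted p = 0.0302; 0.156 with it), the 1 call of 18 clock genes. Pfkfb3, which makes the activator of phosphofructokinase, was at 24.1, 17.0 and 224 CPM in old and 139, 338 and 163 CPM in young knockout libraries. For Pfkfb3 the library labelled 40 was in the young range and the other old libraries far below it (without it, log2 change -3.37 ± 0.65 SE, edgeR adjusted p = 0.0213; 0.497 with it). Aqp4, the water channel of fast fibres, was at 15.3, 23.0 and 107 CPM in old and 61.1, 65.1 and 52.1 CPM in young knockout libraries, with the library labelled 40 above the other 5 (without it, log2 change -1.63 ± 0.38 SE, edgeR adjusted p = 0.0452; 0.860 with it). The log2 change of Aqp4 was positive, though not called, without old knockout 17 (0.13) or 45 (0.04).

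Contractile, metabolic and protein turnover lists gave few calls. None of 18 fast fibre genes, 46 nuclear genes of oxidative phosphorylation, 24 genes of glycolysis and glycogen, 22 of the sarcoplasmic reticulum or 31 of the cell cycle was called, with medians of -0.04, 0.00, -0.04, -0.05 and 0.40. The cell cycle list had 23 positive changes in knockout muscle, and its median was -0.81 in floxed and -0.83 in Cre controls. Of 24 ubiquitin and autophagy genes of atrophy 1 rose, Map1lc3a, which encodes an LC3 protein of autophagosomes, at 87.1, 84.4 and 63.1 CPM in old knockout 17, 45 and the library labelled 40 against 43.7, 48.1 and 57.2 CPM in young knockout 80, 82 and 83 (log2 change 0.66 ± 0.15 SE, edgeR adjusted p = 0.0477, 0.215 without young knockout 80). Map1lc3a kept its call in 2 of the 12 fits that left out a control library. Fbxo32, the atrogin-1 ubiquitin ligase, was at 410, 370 and 376 CPM in old and 125, 247 and 271 CPM in young knockout libraries, without overlap but also without a call (0.85 ± 0.25 SE, edgeR adjusted p = 0.118). Of 24 genes of the dystrophin complex and laminins, Sspn, or sarcospan, fell (log2 change -0.58 ± 0.12 SE, edgeR adjusted p = 0.0251, 0.153 without young knockout 80). Without the library labelled 40, Sspn did not pass (edgeR adjusted p = 0.0593) and no gene of the list was called.

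**Figure D5:**
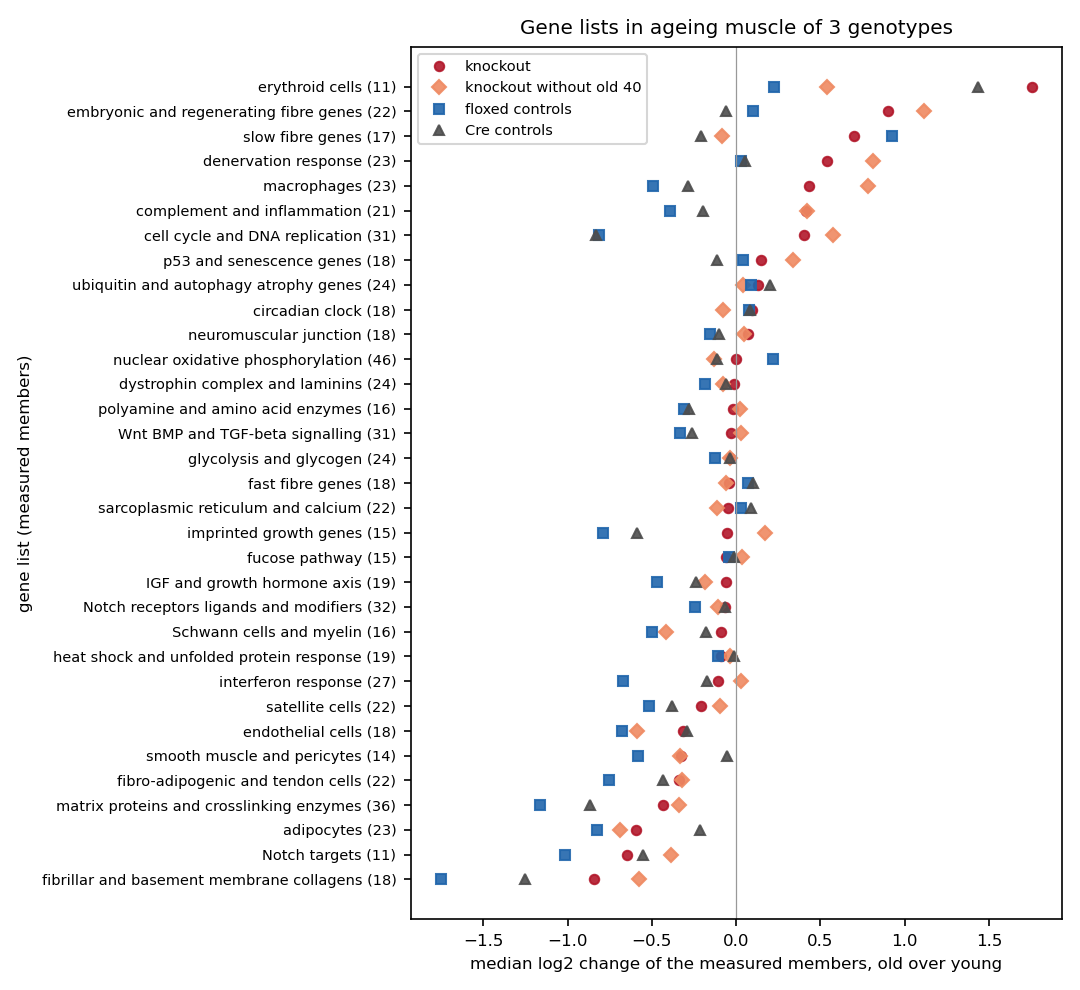
Median log2 change with age (horizontal) of the measured members of each gene list with at least 10 of them (vertical, number in brackets) in knockout muscle with and without the library labelled old knockout 40, floxed controls and Cre controls. The collagen list is lowest in both controls and in knockout muscle with all libraries (-0.84; -0.57 without that library), and the embryonic and regenerating fibre list stands at 0.90 and 1.11 in knockout muscle and near 0 in both controls.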

How the data were processed

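RNA-seq was made from quadriceps of 18 mice, and groups, ages and animal numbers were taken from the labels. After removal of ribosomal RNA, libraries were prepared with the ScriptSeq v2 kit, per the labels' protocols. STAR, HTSeq and DESeq2 and the builds GRCm38.p4 and GRCh38.p5 are named, per the submitters' processing notes; their versions and options, the strand counted and the role of each build were not found in those notes. Raw counts of 15224 genes are used as deposited by the authors. The authors' deposited table also gives a log2 fold change and an adjusted p-value for old against young knockout, and 38 genes have no adjusted p-value there. A further 24 columns, 18 of them normalized values, were not used here.

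Counts were tested with edgeR 4.0.16 (limma 3.58.1, R 4.3.3): TMM factors, filterByExpr (minimum count 10; no gene dropped out), 1 mean for each of 6 groups over 18 libraries, the quasi-likelihood F-test, and Benjamini-Hochberg adjustment over all 15224 genes at 0.05. The biological coefficient of variation was 20.1%. CPM are counts over TMM-scaled library totals, and the SE of a log2 change is its size over the square root of F. Control ageing and the difference of ageing come from the same fit. Fits without the library labelled old knockout 40 drop it and keep 17 libraries. DESeq2 1.42.0, RLE factors, other filters, Xist as a covariate and fits without each library were alternatives. The tests were checked on simulated counts. The members and the gene lists were chosen with earlier results of these data known; 674 of 757 listed genes were measured. Named genes are Pofut1, Xist and Ddx3y, up to 12 called genes per direction with the largest change, a mean of at least 1 CPM in the higher age and no overlap between ages, up to 8 per direction in the difference of ageing and among genes called only without the library labelled old knockout 40, and up to 4 per list with the smallest p; other named genes, among them Insig1, Prelp, Ppp1r12b, Myh3, Tnnt2, Ncam1, Tmem8c, Chrng, Hes1 and Myh7, were chosen after their values were seen. Totals of 24901936 to 31440196 counts per library limit low genes: 1 count is about 0.04 CPM. Replicate pairs held equal counts in 1.23% to 2.13% of genes.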

Additional observations from a re-analysis of the deposited data

Results flagged for a closer look

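Ageing differed between knockout and control muscle in 13 genes once the library labelled old knockout 40 was left out, by edgeR's quasi-likelihood test of the difference itself, knockout minus the mean of both controls. With that library included none of them passed. A more positive change in knockout muscle was called for Igf2 (log2 difference 3.11, adjusted p = 0.0437), Myh8 (2.88, 0.0221), Zdbf2 (2.47, 0.0437), Cdc14a (1.73, 0.0437), Col8a1 (1.66, 0.0390), Mfap5 (1.49, 0.0179), Hr (1.45, 0.00232), Usp35 (1.32, 0.0295), Pdgfra (0.97, 0.0437), Ifngr1 (0.96, 0.0390) and Fam102b (0.75, 0.0295). A more negative change was called for Ccrl2 (-1.45, 0.0437) and Sobp (-0.78, 0.0437). With only 2 old knockout libraries in that fit, 17 and 45, their spread is taken to be like that of the other groups. Old knockout 17 has high Xist and old knockout 45 high Ddx3y, so both sexes are among them. Dropping the library labelled 40 takes a female library from the knockout only. The shift in sex with age is thus unequal between knockout and controls in this contrast. With Xist as a covariate, 143 genes were called in it.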

How the results depend on the processing

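Counts of called genes moved with the test and with single libraries. No named gene that was called with all libraries changed direction under any alternative run, but some uncalled ones did. Aqp4 changed sign without old knockout 17 (0.13) and without 45 (0.04). Without old knockout 45, Cd68 (-0.04), Zdbf2 (-0.24) and Myog (-0.40) changed sign too. The same fit turned Cd74 of the antigen presentation list (-0.06) and Ms4a7 of the macrophage list (-0.21). Myog (-0.08) and Myh4 (0.02) changed sign without young knockout 83, and Myh4 (0.01) with Xist as a covariate. Mrc1 did so without young knockout 80 (0.14), and Mrc1 (0.16) and Myh7 (-1.42) without the library labelled old knockout 40. Knockout ageing gave 166 calls, 497 with DESeq2, 11 when only the 6 knockout libraries were fitted (1992 at unadjusted p under 0.05), and 18 to 237 when 1 knockout library was left out; RLE factors, other filters, Xist as a covariate and fits without a control library stayed within 1.5 times the 166. Single genes could still lose their calls without a control library, as Myh8 and Loxl2 did in all 12 such fits. Without the library labelled old knockout 40, the 237 calls became 566 with DESeq2 and 461 with Xist as a covariate. The difference of ageing gave 0 calls, 77 with DESeq2, 3 with Xist as a covariate, and 0 to 13 when 1 knockout library was left out. Without the library labelled old knockout 40 its 13 calls became 462 with DESeq2, 143 with Xist as a covariate, 6 with floxed controls only and 1 with Cre controls only. The cause of these shifts was not tested. Of the 24 genes named for the largest changes, 18 were called without the library labelled old knockout 40, 17 without old knockout 45, 10 without old knockout 17, and 5, 12 and 4 without young knockout 80, 82 and 83. No paired analysis was possible because the groups share no replicate number.

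With 3 libraries per age, 1 of which has a control-like Pofut1 level, the calls are those of large or steady changes. Sex is not in the labels and its mix differs between the ages in each genotype.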
